A study of Mus musculus with 6 samples.

Results

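Interferon-stimulated genes, a set of 35 chosen by name, were followed in the lungs of 6 mouse embryos at E18.5, late in gestation. Of these, 32 matched at least 1 probe on the array, among 18217 genes with a matched probe, through 45 probes in all. No probe accession was matched to Mx1, Mx2 or Ifi203, and the levels of these genes are not analysed here. Ifi203 is counted only among the promoters. The array was an Agilent whole mouse genome array with 1 colour, and each array held the total RNA of 1 lung. The 3 wild type embryos carried 15-1+/+ and 15-2+/+. The 3 knockout embryos carried 15-1Flox/Flox and 15-2-/-, where ECAT15-2 is Dppa2 and ECAT15-1 is its relative Dppa4, so the homozygous floxed allele of the second gene came with the null allele of the first. All embryos came from parents heterozygous for both alleles (15-1+/Flox, 15-2+/-). Both groups share a mixed background that began with 129Sv embryonic stem cells and went through C57/BL6 and through animals with a Cre or FLPe transgene, for which no strain is known. The labels call the samples numbered replicates and do not name litters. The p-values set each group difference against the spread between these embryos. That spread also holds differences of slide, sex-linked signal and raw file number, described below.

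Cells that meet a virus or foreign nucleic acid secrete interferons. Type I interferons bind the receptor pair Ifnar1 and Ifnar2, the kinases Jak1 and Tyk2 then activate signalling factors such as Stat2, which acts with Irf9 in a complex that binds the interferon-stimulated response element (ISRE). Interferon gamma acts through Ifngr1 and Ifngr2, and its response runs through the gamma-activated site (GAS). The genes that are switched on in this way block viral RNA and protein, present antigen, and feed back on the pathway. Healthy tissues also express many of them at a basal level.

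The arrays were of even quality, with 63.3% to 68.8% of the 41174 probes well above background and no saturated spot. All 12 lung epithelial markers looked at, Sftpc and Nkx2-1 among them, were above background on every array. Wild types 1 and 2 had signal from all 4 Y-linked genes examined and none from Xist, and the other 4 arrays had the reverse. Sex-linked signal was therefore unevenly spread over the groups. By the barcodes in the file headers, wild types 1 and 2 and knockout 3 lay on 1 slide (slide 1), wild type 3 on slide 2, and knockouts 1 and 2 on slide 3. By a number in the names of the raw files, wild types 1 and 2 form 1 class, wild type 3 and knockout 3 another, and knockouts 1 and 2 the last. The Dppa2 probe gave signal above background in every lung, knockouts included. Its level was -3.16, -3.45 and -3.49 in the wild types and -4.88, -4.92 and -3.99 in the knockouts. Knockout 3 was thus the nearest of the knockouts to the wild types. The groups differed by -1.23 (log2, limma adjusted p = 0.0619), and where the probe lies relative to the deleted part is not known here.

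The basal expression of the interferon-stimulated genes was broad. Of the 32 genes, 31 had a probe well above background on all 6 arrays, and these 31 were tested. The exception was Oas3, an oligoadenylate synthetase, both of whose probes were above background on the same 3 arrays. These were wild types 1 and 2 and knockout 3, and on wild type 3 and knockouts 1 and 2 neither probe was well above background. Levels are given as log2 intensity relative to the 75th percentile of the array, and since probes differ in brightness, no gene's level is set against another's.

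Of the 10 genes whose level differed most between the lungs, Zbp1 and Oas2 had no promoter entry. Irf7, Oasl2 and Ifi44 had an entry without ISRE letters, and Oas1a had ISRE letters but is not shown. The promoters of the other 4, picked because ISRE letters lie in each of them, are printed below. Each is the 130 bases before the start of the gene, 5′ to 3′ on the gene's strand, from RefSeq on GRCm38.p6, with matches to the ISRE letters in capitals (GAAA, any 2 bases, GAAA, on either strand, with overlapping matches joined).
Isg15 (chr4:156200819-156200948, minus strand): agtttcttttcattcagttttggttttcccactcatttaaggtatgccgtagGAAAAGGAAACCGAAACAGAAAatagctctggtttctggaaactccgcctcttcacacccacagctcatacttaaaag
Rsad2 (chr12:26456453-26456582, minus strand): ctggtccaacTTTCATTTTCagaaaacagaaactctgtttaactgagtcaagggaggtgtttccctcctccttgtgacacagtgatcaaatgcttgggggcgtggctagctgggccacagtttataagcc
Ifit3 (chr19:34583399-34583528, plus strand): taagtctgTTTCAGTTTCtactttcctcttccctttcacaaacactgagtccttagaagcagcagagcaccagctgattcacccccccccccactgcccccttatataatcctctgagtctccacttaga
Ifit1 (chr19:34640759-34640888, plus strand): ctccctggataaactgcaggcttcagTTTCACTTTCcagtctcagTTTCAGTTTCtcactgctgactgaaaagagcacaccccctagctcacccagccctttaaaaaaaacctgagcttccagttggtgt

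Isg15 had 3 overlapping matches that began 78, 72 and 66 bases before the start. Rsad2 had 1 match, 120 bases before the start, and Ifit1 had 2, which began 104 and 85 bases before it. RefSeq promoter entries, from 250 bases before to 50 bases after the start, were found for 26 of the 35 genes. The ISRE letters occurred in 13 of these 26 genes (50%), against 3.99% of all 27025 genes with a promoter entry. The GAS letters TTCNNNGAA, which read the same on both strands, occurred in 7 of the 26 (26.9%), against 9.55% of all genes. Of the genes with GAS letters, Bst2 and Oas1a also had ISRE letters in these windows. Irf1, Psmb8, Isg20, Ifi35 and Ifit2 did not. These are matches of letters in a window, and none of them is a measured binding site.

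The level of these genes differed from embryo to embryo more than that of most features on the array, and it differed in the same direction for nearly all of them. The standard deviation (SD) over the 6 lungs had a median of 0.44 over the 31 genes (log2), against 0.21 over all 19867 features tested. For 15 of the 31 (48.4%) the SD lay above 0.51, the 90th percentile of all features. The spread was present within each group, with a median SD of 0.45 among wild types and 0.36 among knockouts, against 0.15 and 0.17 over all features. In bulk tissue, more cells that express a gene and more RNA per cell cannot be told apart.

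The embryos themselves were ordered. Wild type 1 was the highest array for 24 of the 31 genes, against 13.0% of all features. Knockout 1 was the lowest for 18 (58.1%), against 21.1% of all features. Relative to each gene's 6-array mean, the median over the genes was 0.58 in wild type 1, 0.32 in wild type 2 and 0.16 in knockout 3. It was -0.25 in wild type 3, -0.31 in knockout 2 and -0.57 in knockout 1. The 3 lungs with positive medians thus came from both genotypes, as did the 3 with negative medians.

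**Figure D1:**
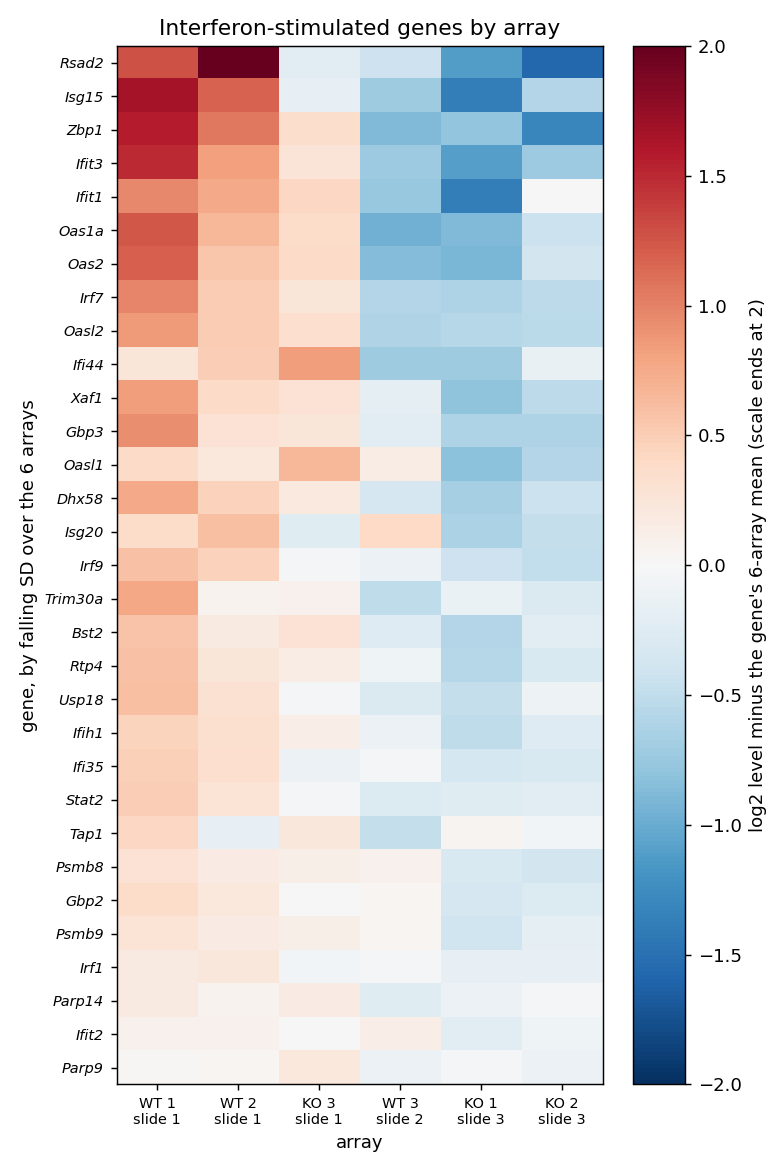
Log2 level of each of the 31 tested genes (rows, by falling SD) minus its 6-array mean, for each array (columns, ordered by slide; WT is wild type, KO is knockout). The columns of wild types 1 and 2 and knockout 3, on slide 1, are mostly above the mean, with medians of 0.58, 0.32 and 0.16, and the other 3 columns are mostly below it.

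In the medians by lung, the arrays of slide 1 stood above the others. The lungs with Y-linked signal stood highest, and lungs that share a raw file number were neighbours in the order. Wild types 1 and 2 alone had Y-linked signal, and they shared a raw file number with no other array. Both were above the other 4 arrays for 22 of the 31 genes (71%), against 17.2% of all features. For 25 of the 31 genes (80.6%) all 3 arrays of slide 1 lay above all 3 of the other arrays, which held for 6.44% of all features, while 6.63% had the 3 arrays of slide 1 below the others. Within the wild types, the mean of wild types 1 and 2 was above wild type 3 for 30 of 31 genes, with a median difference of 0.65, against 47.6% of all features. Within the knockouts, knockout 3 was above the mean of knockouts 1 and 2 for 31 of 31, with a median difference of 0.58, against 49.4% of all features. The 6 genes that did not separate the slides in this way were Isg20, Ifi35, Tap1, Gbp2, Irf1 and Ifit2 (named after their values were seen). The parts of slide, Y-linked signal and file number in the level of these genes were not tested. The embryos that differ by them are also different animals. 

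Pairs of these genes moved in parallel over the lungs. The median Pearson correlation over the 465 pairs of the 31 genes was 0.845 across the 6 arrays, against 0.00275 over all pairs of 19839 features with a value on every array. Positive correlations were found in 99.6% of the pairs, against 50.2% of all pairs. With the group means removed the median was 0.868. Without wild type 1 and knockout 1, the lungs with the highest and lowest median over the set, it was 0.777 over the remaining arrays. All points share the same 6 lungs and the genes are not independent, so these values are descriptions and carry no p.

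**Figure D2:**
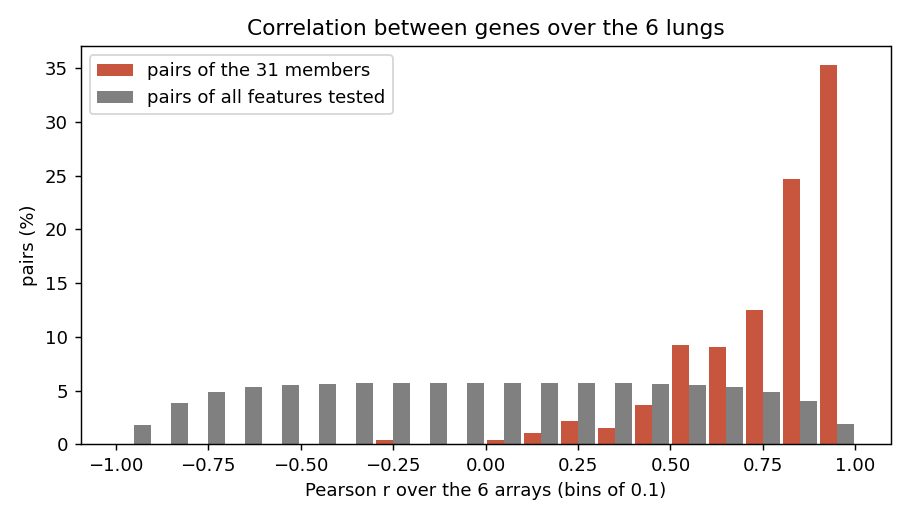
Share of gene pairs (percent, vertical axis) in bins of the Pearson correlation over the 6 arrays (horizontal axis), for pairs of the 31 tested interferon-stimulated genes and for pairs of all features. Of the pairs among the 31 genes, 60% had a correlation above 0.8, against 5.93% of all pairs.

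Each gene was also set against the median of the other 30. The correlation was above 0.9 for 20 of the 31. It was 0.997 for Dhx58, a helicase that regulates RNA sensing, 0.989 for Ifit3 and 0.989 for Ifih1. The lowest values were 0.475 for Tap1, a subunit of the peptide transporter for antigen presentation, 0.553 for Parp9 and 0.663 for Ifit2.

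Among the effectors, Rsad2, the radical enzyme viperin that makes a chain-terminating nucleotide, had the widest range. Its levels were 1.08, 1.86 and -0.61 in wild types 1, 2 and 3, and -1.32, -1.77 and -0.42 in knockouts 1, 2 and 3. Wild type 2 was 12.3-fold above knockout 2, and wild type 3 fell within the range of the knockouts. The knockout minus wild type difference was -1.95 (SE 0.63, 95% interval -3.44 to -0.46) and was not called (limma adjusted p = 0.122). Its other probes gave -1.32 and -1.23.

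Isg15 encodes a ubiquitin-like protein that is coupled to other proteins during the antiviral response. Its levels were 1.52, 1.04 and -0.85 in wild types 1, 2 and 3 and -1.52, -0.73 and -0.31 in knockouts 1, 2 and 3. Here too wild type 3 lay among the knockouts. The difference was -1.43 (SE 0.61, limma adjusted p = 0.199).

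Ifit1 and Ifit3 belong to a family that binds viral RNA and blocks its translation. Ifit3 was at 0.14, -0.53 and -2.08 in the wild types and at -2.45, -2.08 and -1.08 in the knockouts. Ifit1 was at -1.64, -1.85 and -3.36 in the wild types and at -3.98, -2.60 and -2.19 in the knockouts. For both genes wild type 3 lay below knockout 3, and the groups overlapped. Their differences were -1.05 (95% interval -2.44 to 0.35) and -0.64 (-2.02 to 0.74), and neither passed. Ifit2, of the same family, varied less at its brighter probe, with levels from -1.75 to -1.70 in the wild types and -2.05 to -1.85 in the knockouts. Its difference of -0.21 did not pass either (limma adjusted p = 0.24). The SD over the 6 lungs was 0.13 at this probe, against 1.02 for Ifit3. A dimmer Ifit2 probe, above background on 5 arrays, had an SD of 0.37 and a difference of -0.49, and its groups overlapped.

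Ifi44, an effector of less settled function, was the gene of this group in which a knockout was highest at the probe tested. It was at -1.28, -1.04 and -2.23 in the wild types and at -2.23, -1.67 and -0.69 in the knockouts. The group means differed by -0.01, although the highest lung was 2.91-fold above the lowest, and the sign of the difference turned under several of the alternatives. The remaining effectors were Xaf1, a promoter of cell death, Bst2, the tether that holds budding virus at the cell surface, Rtp4, Trim30a, Isg20 and Ifi35. Of these, Xaf1 (SD 0.61), Bst2 (0.42), Rtp4 (0.41) and Trim30a (0.44) were highest in wild type 1, with differences from -0.69 to -0.21 that did not pass. At a second Trim30a probe knockout 3 (-1.79) was slightly above wild type 1 (-1.81), and the difference was -0.25.

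**Figure D3:**
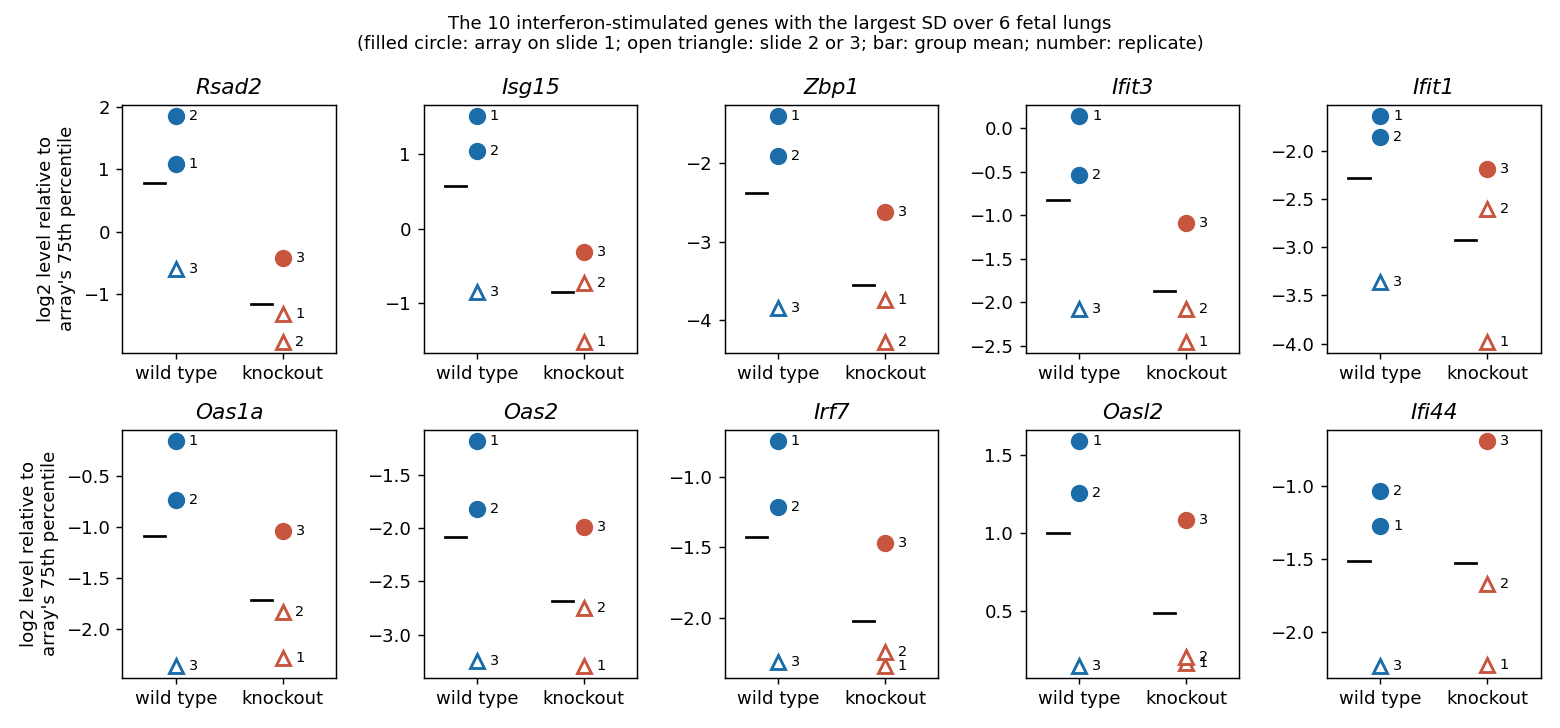
Log2 level relative to the array's 75th percentile (vertical axes) in each lung for the 10 genes with the largest SD over the 6 arrays, by group; filled circles are arrays of slide 1, open triangles those of slides 2 and 3, numbers are replicates and bars are group means. In each panel the 3 filled circles lie above the 3 triangles, and wild type 3 lies below knockout 3, as for Rsad2 at -0.61 against -0.42.

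Among the sensors, Zbp1, which detects nucleic acids in the Z form and can start cell death, was at -1.40, -1.90 and -3.85 in the wild types. In the knockouts it was at -3.74, -4.27 and -2.62. Wild type 3 was the second lowest of the 6 lungs. The difference was -1.16 (SE 0.68, limma adjusted p = 0.317).

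The oligoadenylate synthetases make a short RNA-like messenger that sets off the breakdown of RNA. Oas1a was at -0.16, -0.74 and -2.37 in the wild types and at -2.29, -1.83 and -1.04 in the knockouts. Oas2 was at -1.18, -1.82 and -3.25 in the wild types and at -3.30, -2.75 and -1.99 in the knockouts. Both genes were high in wild types 1 and 2, intermediate in knockout 3 and lower in the other 3 lungs. A second Oas2 probe was below background on all 6 arrays. Oas3 had the same order at its brighter probe, with -3.77, -4.49 and -7.16 in the wild types and -6.98, -6.70 and -5.41 in the knockouts, where values of wild type 3 and knockouts 1 and 2 are below background.

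Oasl2, a relative of the synthetases, was at 1.59, 1.25 and 0.15 in the wild types and at 0.17, 0.21 and 1.08 in the knockouts. Knockout 3 stood near wild types 1 and 2, and the other 3 lungs lay close together. The differences of Oas1a, Oas2 and Oasl2 were -0.63, -0.60 and -0.51 and did not pass. Oasl1, a translational repressor of Irf7, was highest in knockout 3. Of the RNA helicases, Ifih1 (the sensor MDA5) differed by -0.42 and Dhx58 by -0.60, and neither passed.

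Among the regulators, Irf7, the factor that amplifies production of type I interferon, was at -0.75, -1.22 and -2.31 in the wild types. In the knockouts it was at -2.34, -2.24 and -1.47. Knockout 3 lay between wild type 2 and the 3 low lungs. Its difference was -0.59 (95% interval -1.57 to 0.39).

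Irf9, the DNA-binding subunit of the complex at the ISRE, was at 2.01, 1.87 and 1.30 in the wild types and 1.00, 0.92 and 1.40 in the knockouts. The groups overlapped through wild type 3 and knockout 3. The difference was -0.62 (SE 0.22, limma adjusted p = 0.143), and -0.51 at a second probe. Stat2, its partner, differed by -0.33, and Usp18, the protease that removes Isg15 and dampens the receptor, by -0.41. Irf1, a factor induced by interferon gamma, differed by -0.25 and all 3 of its wild type values lay above its knockout values, with wild type 3 (3.50) and knockout 3 (3.48) nearly equal. At a second Irf1 probe the difference was -0.07 and the groups overlapped, with wild type 3 below all 3 knockouts. None of the 5 regulators passed.

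The guanylate-binding proteins attack the vacuoles of intracellular pathogens. Gbp2 was at 0.18, 0.03 and -0.14 in the wild types and at -0.51, -0.44 and -0.19 in the knockouts, without overlap. The difference of -0.41 did not pass (SE 0.14, limma adjusted p = 0.131). Gbp3 differed by -0.67 (adjusted p = 0.264, limma) and its groups overlapped. Parp9 and Parp14, ADP-ribosyltransferases encoded on chromosome 16 as is Dppa2, differed by 0.04 and -0.00. Rtp4, an effector on the same chromosome, differed by -0.48 and did not pass.

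In antigen processing, Psmb8, a catalytic subunit of the immunoproteasome, was at 2.16, 2.03 and 1.95 in the wild types and at 1.56, 1.498 and 1.99 in the knockouts. Knockout 3 lay within the wild type range. The difference was -0.36 (SE 0.16, limma adjusted p = 0.196), and -0.36 at its second probe. Psmb9, another such subunit, differed by -0.31. Tap1 differed by 0.15, the most positive value of the set.

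Between the genotypes 1 of the 31 genes fell in the knockout lungs and 0 rose (limma, adjusted p under 0.05), and 5 had an unadjusted p under 0.05. Over all features 1.34% were called, 0.619% lower and 0.725% higher in the knockouts, and 25.8% had an unadjusted p under 0.05. The gene that fell was Isg20, an exonuclease that degrades RNA. It was at 2.43, 2.66 and 2.45 in the wild types and at 1.43, 1.59 and 1.81 in the knockouts, so that the groups did not overlap and knockout 3 did not join the wild types. The difference was -0.90 (SE 0.14, 95% interval -1.23 to -0.58), or 1.87-fold (limma adjusted p = 0.0382). A second Isg20 probe gave -0.87.

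The Isg20 difference kept its sign under every alternative, with -0.73 for knockout 3 against wild types 1 and 2 and -0.64 for knockout 3 against wild type 3. A term for Y-linked signal sets the knockouts against wild type 3 alone. A block for the slide sets knockout 3 against wild types 1 and 2. The call of Isg20 held under 7 alternatives and was lost under 12. The difference was -0.99 with normexp (limma adjusted p = 0.606) and -0.90 without the filter (limma adjusted p = 0.125). It was -0.84 with a term for slide 1 (limma adjusted p = 0.0607). With a term for arrays with Y-linked signal it was -0.84 (limma adjusted p = 0.355), with a block for the slide -0.73 (limma adjusted p = 0.155) and with the replicate block -0.90 (limma adjusted p = 0.0848). Leaving out wild type 1 or 2 or knockout 1 or 2 gave adjusted p-values of 0.138, 0.142, 0.103 and 0.104. Over all alternatives the adjusted p ran from 0.0276 to 0.866.

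Ifi35, which binds other interferon-induced proteins, was at 1.68, 1.53 and 1.16 in the wild types and at 0.85, 0.89 and 1.08 in the knockouts. The groups did not overlap, and the difference of -0.52 did not pass (SE 0.16, limma adjusted p = 0.112). In all, the groups did not overlap for 5 genes, each lower in the knockouts: Isg20, Ifi35, Gbp2, Irf1 and Ifit2. For Irf1 and Ifit2 this held at 1 of their 2 probes. The 5 genes are 16.1% of the 31, where 14.9% of all features lay apart with lower knockout values.

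The set as a whole leaned toward lower values in the knockouts, with a median difference of -0.50 and 29 of 31 negative, against 0.00 and 50% over all features. The lean rested on wild types 1 and 2. Set against wild type 3 alone, the mean of the 3 knockouts had a median difference of 0.03, with 15 of 31 negative. Between wild type 3 and knockout 3, which share a raw file number, the median was 0.45 and 5 of 31 were negative. Within slide 1, between knockout 3 and wild types 1 and 2, it was -0.34 with 26 of 31 negative. With a term for slide 1 against the other slides, added after the data were seen, it was -0.24 and none of the 31 passed. Genotype, sex-linked signal, slide and file number overlap in these 6 lungs, and their parts in the lean cannot be told apart for wild types 1 and 2.

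**Figure D4:**
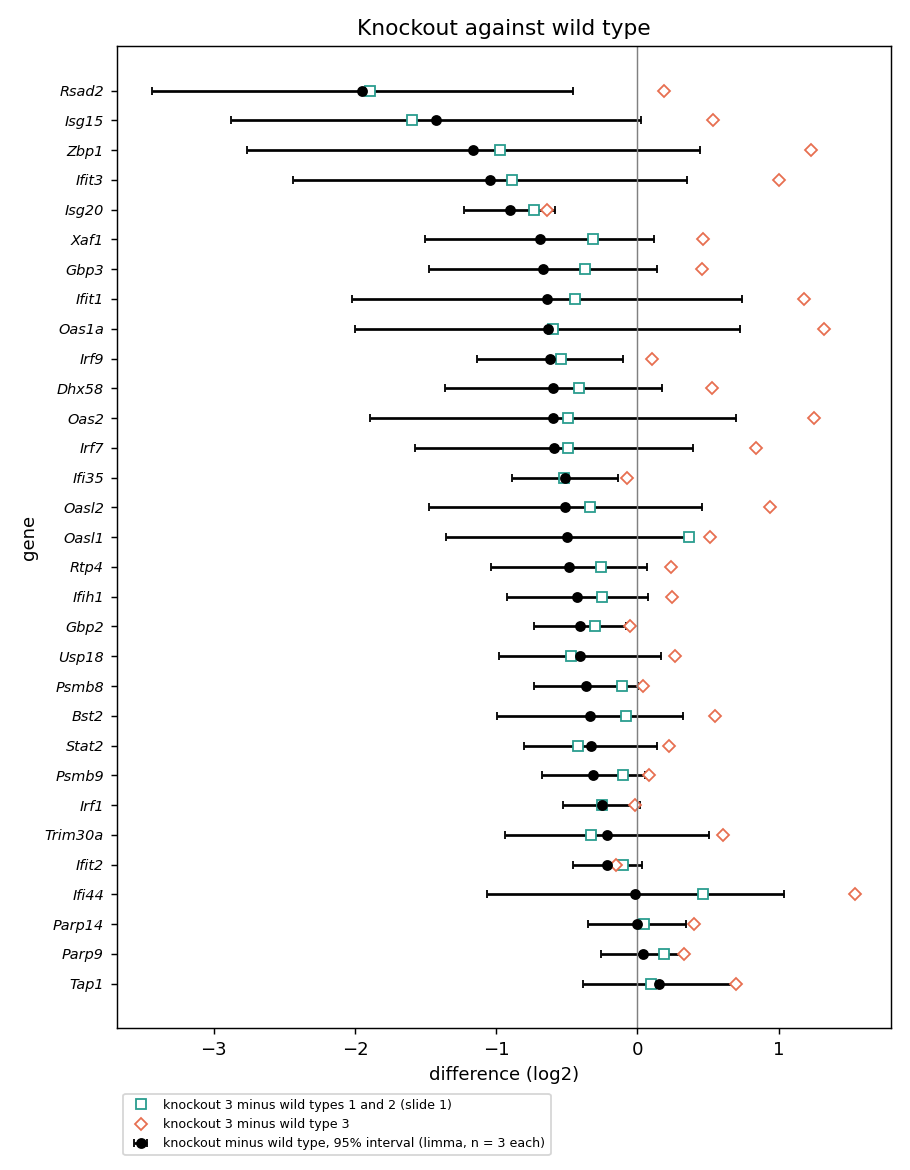
Knockout minus wild type difference (log2, horizontal axis) of each tested gene with its 95% interval (black, limma, n = 3 each), beside the difference of knockout 3 from wild types 1 and 2 on slide 1 (squares) and from wild type 3 (diamonds). Most black points and squares lie below 0, most diamonds above it, and Isg20 is below 0 in all 3, at -0.90, -0.73 and -0.64.

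Single lungs decided how many of the set were called. Without wild type 3, 5 genes passed, Isg15, Rsad2, Irf9, Ifi35 and Isg20, all lower in the knockouts. Of all 19867 features 1919 then passed, 1296 higher and 623 lower in the knockouts. Without knockout 3, 2 genes passed, Isg20 and Oasl1, while 416 features passed in all, 227 higher and 189 lower. Without wild type 1, wild type 2, knockout 1 or knockout 2, 0 passed by limma, and 35, 57, 60 and 77 features passed in all, with 3411, 3098, 3870 and 4203 at an unadjusted p under 0.05.

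The ligands and receptors of the pathway were looked at by detection first. Of 12 interferon genes with a probe, 8 were below background on all 6 arrays, among them Ifnb1, Ifna4 and Ifnl3. Ifng, Ifna9 and Ifnz were above background on every array and Ifna13 on 5. Ifng was at -5.16, -5.28 and -4.77 in the wild types and at -5.23, -5.31 and -5.31 in the knockouts. All 18 receptor and signalling genes were above background on every array, and 0 of them passed the test by limma (4 had an unadjusted p under 0.05).

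The receptors varied little. Ifnar1 differed by 0.13 and Ifnar2 by 0.13, with SDs over the 6 lungs of 0.22 and 0.12. Jak1 and Tyk2 had SDs of 0.07 and 0.10. The members of smallest p were Socs1, an inhibitor of the kinases (-0.67), Irf8 (-0.46) and Stat3 (-0.36). Of 17 sensors and adaptors 0 passed by limma (2 at an unadjusted p under 0.05), and Myd88 (-0.35), Ticam1 (-0.35) and Tlr7 (-0.35) had the smallest p.

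A further list of 38 interferon-stimulated genes that are not in the set showed the same order of lungs. Of 29 tested, 0 passed by limma (6 at an unadjusted p under 0.05), 27 had negative differences, and the median was -0.34. All 3 arrays of slide 1 were above the other 3 for 19 of the 29, and wild type 1 was highest for 21. Their medians by lung were 0.37, 0.23 and -0.12 in the wild types and -0.29, -0.25 and 0.06 in the knockouts. Ly6e (-0.67), Irgm2 (-0.61) and Ifi47 (-0.57), both of the last of which are immunity-related GTPases, had the smallest p. In the list of MHC class I and antigen processing, 0 of 11 passed by limma (3 at an unadjusted p under 0.05). Their medians by lung were smaller in size, from -0.20 in knockout 1 to 0.22 in wild type 1. Erap1 (0.41), Psme1 (-0.35) and Tap2 (0.68) had the smallest p.

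**Figure D5:**
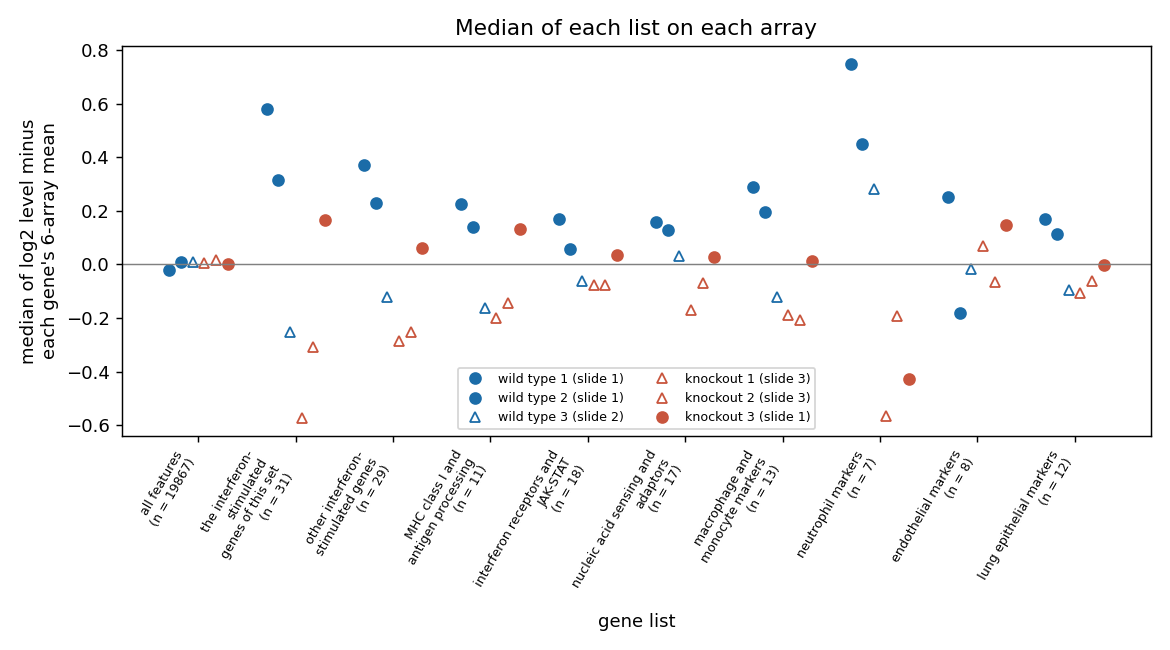
Median over each gene list of the log2 level minus the gene's 6-array mean (vertical axis), for each of the 6 lungs (filled circles: slide 1; open triangles: slides 2 and 3; n is the number of genes tested). The lungs are spread from -0.57 to 0.58 in the 31 interferon-stimulated genes and from -0.29 to 0.37 in the 29 others, with slide 1 above the other slides in both, and lie near 0 over all features.

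Markers of leukocytes moved with these genes in part. Of the macrophage and monocyte markers, all 13 with a probe were above background on every array, and their medians by lung were 0.29, 0.20 and -0.12 in the wild types and -0.19, -0.21 and 0.01 in the knockouts. Wild type 1 was highest for 10 of 13, and 0 passed by limma (5 at an unadjusted p under 0.05), with Lyz2 (-1.10), Tyrobp (-0.47) and Mpeg1 (-0.54) of smallest p. The medians by lung of the 7 neutrophil markers tested did not overlap between the groups, from 0.28 to 0.75 in the wild types and from -0.56 to -0.19 in the knockouts. Wild type 1 was highest for 6 of the 7, and slide, sex-linked signal and file number overlap with genotype here too. By limma 1 of 7 passed, against 1.34% of all features, and 5 had an unadjusted p under 0.05, against 25.8%. The groups lay apart with lower knockout values for 5, against 14.9% of all features. S100a8 passed (-0.99, limma adjusted p = 0.039), and Camp (-1.14) and S100a9 (-0.90) did not. Elane was below background on all 6 arrays.

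Of 12 lymphocyte markers, 3 were above background on every array, and Cd4, Cd8a, Cd79a and Ncr1 were on none. The 5 tested had medians of 0.87, 0.54 and -0.18 in the wild types and -0.63, -0.35 and -0.01 in the knockouts. The B cell marker Ms4a1 differed by -2.53 and Nkg7 by -0.29, and neither passed. Ms4a1 was not above background in knockout 1, so the size of its difference is uncertain. Siglech, a defining marker of plasmacytoid dendritic cells, was below background on all 6 arrays, as was Klk1. Of that list Ly6d (-1.81), Tcf4 (-0.17) and Bst2 were tested, Bst2 being itself an interferon-stimulated gene. Their medians by lung ran from -0.53 in knockout 1 to 0.58 in wild type 1. Endothelial markers had medians from -0.18 to 0.25 and lung epithelial markers from -0.10 to 0.17. In neither list did a gene pass by limma (1 and 4 at an unadjusted p under 0.05). Pecam1 (0.56), Tek (0.35) and Vwf (-0.33) and, of the epithelium, Scgb1a1 (-1.74), Epcam (0.40) and Foxa2 (-0.30) had the smallest p. The part of leukocyte numbers in the level of the interferon-stimulated genes was not tested.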

How the data were processed

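RNA of 6 lungs was measured on 1 array each (3 wild type, 3 knockout, grouped by the titles). Per the file headers, Agilent Feature Extraction 10.7.3.1 made the deposited intensity per spot, which is subtracted for background and not scaled between arrays. The authors also deposited log2 values set relative to the wild type median, whose scaling is not stated. Probes were named by RefSeq accession (26690 of 41174). Spots flagged as outliers were left out, spots of a probe averaged, and each array's 75th percentile subtracted from its log2 intensities. Probes well above background (at least 0.5 of their spots) on all arrays of at least 1 group were kept, and the brightest probe stood for a gene. The knockouts were set against the wild types by limma 3.58.1 (R 4.3.3, two-sided), with Benjamini-Hochberg adjustment over 19867 features and a threshold of 0.05. The number of arrays limits precision. The fit was tested on simulated data. The design allowed for normexp on mean signals, but median signals were used here.

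The members and lists were chosen with earlier results of these data known. Values per lung are given for the 10 members with the largest SD and the 6 with the smallest p, and for other lists the 3 genes with the smallest p are named, apart from items that are not reported here. Alternatives covered background correction, scaling, the filter, the probe rule, blocks, a sex-linked term and single arrays left out. Same-numbered wild type and knockout lungs did not deviate together (correlations of -0.0203, 0.0415 and 0.0268), so numbers were not treated as pairs.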

Additional observations from a re-analysis of the deposited data

How the results depend on the processing

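The 31 genes kept a negative median difference under the scalings, filters and probe rules tried and with any single lung left out (-0.68 to -0.30). With the number in the raw file names as a block, or within the number that holds both groups, it was 0.45, and with a term for Y-linked signal, or without the arrays that carry it, 0.030. With the file number as a block 5 of the 31 differences were negative, and with the term for Y-linked signal 15 of 31. The file number block sets 1 knockout lung against 1 wild type lung, the only lungs of both groups that share a number. The term for Y-linked signal sets the knockouts against the 1 wild type lung without that signal. Both rest on the same wild type lung and are not independent of each other. Among the 15 genes with values per lung, the file number block gave a difference above 0 for Rsad2 (0.18), Isg15 (0.54), Zbp1 (1.23), Ifit3 (0.999), Ifit1 (1.18), Oas1a (1.32), Oas2 (1.25), Irf7 (0.84), Oasl2 (0.94), Ifi44 (1.54), Irf9 (0.10) and Psmb8 (0.040). With the term for Y-linked signal, and likewise without those arrays, it was above 0 among these 15 genes for Zbp1 (0.30), Ifit3 (0.21), Ifit1 (0.44), Oas1a (0.65), Oas2 (0.57), Irf7 (0.295), Oasl2 (0.34) and Ifi44 (0.70). Ifi44 was also above 0 with normexp (0.058), with a block for the slide or within slide 1 (0.46), with the term for slide 1 (0.38), and in 4 of 6 leave-one-out fits (range -0.43 to 0.33). The cause of these turns was not tested.

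Calls over all features numbered 0 with normexp, 28 without the filter, 17 with the slide as a block, 0 with the file number as a block, 23 with the term for Y-linked signal, 0 without those arrays and 147 with the term for slide 1, and under each of these 0 of the 31 genes were called by limma. The numbers of features with an unadjusted p under 0.05 were 1571, 5222, 3315, 1075, 1868, 1373 and 4028. The replicate block gave 48 calls and 0 of the 31 (4533 at an unadjusted p under 0.05), and the replicate numbers did not pair the lungs. Leaving out 1 lung gave 35 to 1919 calls, with 0 to 5 of the 31. Of 267 calls 144 were higher in the knockouts, against 59 of 197 with quantile normalization, 82 of 322 with median scaling and 60 of 197 with the authors' deposited log2 values.

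The median SD of the 31 genes was 0.56 with normexp, 0.515 with median scaling, 0.36 without the arrays with Y-linked signal and 0.38 to 0.497 with 1 lung left out. Their median pairwise correlation was 0.716, 0.885, 0.739 and 0.801 to 0.909 in the same order. The 3 arrays of slide 1 lay above the others for 17 of the 31 genes with normexp, 26 with quantile normalization and 23 with median scaling. Wild type 1 was the highest array for 16 of the 31 with normexp, and for 24 with quantile normalization and with median scaling. With 3 lungs a group, and signal near background for Oas3 and most interferon genes, differences smaller than the intervals given could not be seen.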
